A study of Mus musculus with 9 samples.

Results

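Hepatic gene expression was compared between 3 libraries labelled KO CCl4 (72, 75 and 79) and 3 libraries labelled WT CCl4 (11, 12 and 13). These are 6 of the 9 liver libraries of the series, taken by their titles, and all 6 were kept. The mice were C57BL/6 and 12 weeks old. Both groups received carbon tetrachloride (CCl4) intraperitoneally at 0.25 ml per kg in olive oil, 2 times a week for 4 weeks. The label WT was taken to mean the Tgfbr2f/f mice of the series, with floxed Tgfbr2 alleles, and KO the Tgfbr2HKO mice. The sources used here do not give the driver of the deletion, the Cre status of the controls or the time between the last injection and sampling. The remaining 3 libraries, labelled WT NC, contributed to the estimate of the spread and serve as the background, and the meaning of NC is not given either. No KO library without CCl4 was analysed here.

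CCl4 is converted by hepatocyte cytochrome P450 into a radical that kills pericentral hepatocytes, and repeated doses scar the rodent liver. Injured hepatocytes and Kupffer cells release cytokines, recruited macrophages clear debris, hepatic stellate cells turn into matrix-producing myofibroblasts, and surviving hepatocytes divide. TGF-beta binds its type II receptor, the product of Tgfbr2, which recruits and phosphorylates the type I receptor, and that in turn activates SMAD transcription factors. In the liver the pathway drives matrix production by stellate cells and restrains hepatocyte division.

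The 6 libraries held 16790695 to 20373585 counts and 16144 to 17614 detected genes, and a floor of 3 counts in 1 library equalled 0.141 to 0.179 CPM (counts per 1000000, on library sizes scaled by TMM, edgeR's trimmed-mean normalisation). Although the labels give hepatocyte as the cell type, markers of other liver cells were abundant. The summed level of 9 macrophage markers was 6230, 3747 and 2466 CPM in WT CCl4 11, 12 and 13, and 592, 3749 and 1195 CPM in KO 72, 75 and 79. The summed level of 9 hepatocyte markers was 43754, 65019 and 74836 CPM in WT CCl4 11, 12 and 13 and 102235, 82381 and 87104 CPM in KO 72, 75 and 79. In whole tissue, fewer cells of a type and less RNA per cell cannot be told apart. WT CCl4 11 thus had the lowest hepatocyte and the highest macrophage sum, and KO 75 had the macrophage sum of a WT CCl4 library. Across genes, Spearman's rho of KO 75 was 0.971 with WT CCl4 13 and 0.943 with KO 79, against 0.985 between KO 72 and KO 79. Genes are not independent replicates, and this rho is a description. Because KO 75 stood apart, counts for most lists are given with and without it.

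Tgfbr2 itself, on chromosome 9, stood at 127, 90.5 and 75.2 CPM in WT CCl4 11, 12 and 13. It was at 23.5, 69.9 and 28.3 CPM in KO 72, 75 and 79, and its mean in WT NC was 33.4 CPM. All KO libraries were below all WT CCl4 libraries, with KO 75 just under WT CCl4 13. The log2 fold change of -1.26 ± 0.39 (SE) missed the threshold of 0.05 in edgeR's quasi-likelihood fit (adjusted p = 0.0759, after Benjamini and Hochberg). Leaving KO 75 out gave -1.91 (adjusted p = 0.0011, edgeR), the only fit leaving out 1 library in which Tgfbr2 passed. KO 75 was the KO library highest in Tgfbr2, so its removal enlarges the difference by choice and adds no independent support. The libraries labelled KO 72 and KO 79 were therefore low in Tgfbr2 and the library labelled KO 75 was intermediate. Whole-gene counts do not show whether an exon is absent.

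Of 14134 genes tested, 489 (3.46%) were higher and 228 (1.61%) lower in the KO libraries at an adjusted p under 0.05 in edgeR's quasi-likelihood test, the threshold used throughout. The KO libraries were all above the WT CCl4 libraries for 15.8% of the genes and all below them for 15.8%, and 486 of the 489 higher and 227 of the 228 lower genes were among these. Most calls were fragile. With only the 6 libraries compared in the fit, 25 genes were higher and 5 lower, and 3668 genes had an unadjusted p under 0.05. Without KO 75, 2495 genes (17.2% of 14469) were higher and 2958 (20.4%) lower, and all 717 genes called with it were among them. Without KO 72 the counts were 30 and 4, without KO 79 6 and 2, and without WT CCl4 11, 12 and 13 they were 24 and 12, 3 and 2, and 351 and 409. Leaving out WT NC 1, 2 or 3 left 68 to 88 higher and 18 to 19 lower genes. DESeq2's Wald test called 1511 higher and 1255 lower, among them 716 of the 717. The share of calls that were higher in KO was 68.2% here, 54.6% with DESeq2's Wald test, 45.8% without KO 75 and 46.2% without WT CCl4 13, all on the counts. With limma it was 59.0% on log2(FPKM + 0.1) and 43.7% on log2(FPKM + 1), and the median log2 fold change over all genes tested, -0.03 here, was -0.24 and -0.19. Counts of list members without KO 75, given with most lists, stand against those 17.2% and 20.4%. In every one of the 9 fits that left out a library, 5 genes kept their call: the serum amyloid genes Saa1 and Saa2 and the serine dehydratase gene Sds were higher, and the clock genes Nr1d2 and Dbp were lower.

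**Figure D1:**
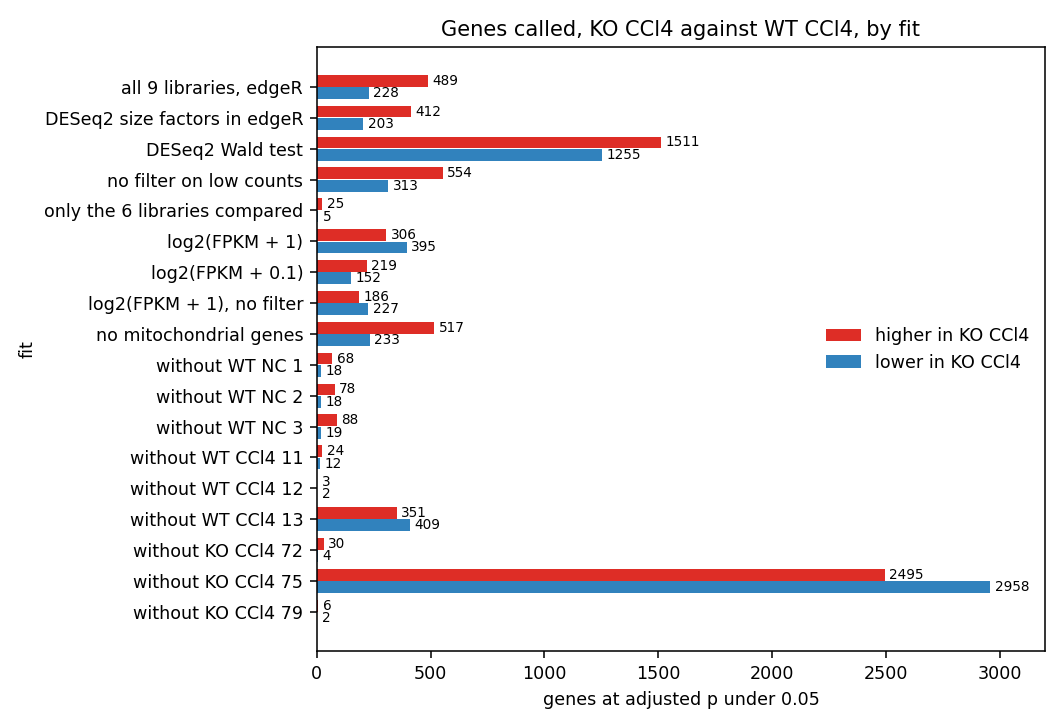
Number of genes at an adjusted p under 0.05 (x axis) in each fit (y axis), with genes higher in KO CCl4 in red and lower in blue. The 9-library edgeR fit called 489 and 228 genes, and the count ran from 3 and 2 without WT CCl4 12 to 2495 and 2958 without KO 75.

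Genes of the circadian clock moved in both directions. The liver clock is a loop in which Arntl (BMAL1) and Clock activate the Per, Cry and Nr1d genes and the output factor Dbp through E-boxes, while the Per and Cry proteins inhibit the activators and the Nr1d proteins (REV-ERB) repress Arntl. Nr1d2 (REV-ERB beta) stood at 73.2, 60.8 and 55.5 CPM in WT CCl4 11, 12 and 13 and at 14.8, 12.1 and 14.7 CPM in KO 72, 75 and 79. The KO libraries lay close together, far below the lowest WT CCl4 library, and the log2 fold change was -2.19 ± 0.16 (SE; adjusted p = 0.000945, edgeR). Dbp, which activates liver output genes, was at 24.1, 19.2 and 14.7 CPM in WT CCl4 and at 2.15, 1.93 and 2.91 CPM in KO (-3.05 ± 0.24; adjusted p = 0.00133, edgeR). Nr1d1 (REV-ERB alpha) was at 55.6, 23.5 and 10.3 CPM in WT CCl4 and 1.01, 1.70 and 1.81 CPM in KO (-4.29 ± 0.64). Bhlhe41 (DEC2), a repressor of the same loop, fell by 2.20 on the log2 scale. Means in WT NC were 139 CPM for Nr1d2, 136 for Dbp and 95.9 for Nr1d1, so both CCl4 groups lay below WT NC.

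The partners of the opposite phase rose. Arntl was at 6.07, 5.04 and 4.16 CPM in WT CCl4 and at 27.5, 17.5 and 23.9 CPM in KO (2.17 ± 0.32; adjusted p = 0.0199, edgeR), against a WT NC mean of 0.936 CPM. Cry1 (1.26 ± 0.26) and Clock (0.76 ± 0.16) also rose. No library of either group overlapped the other for any of these 7 genes. Npas2, a paralogue of Clock, was at 1.61 to 2.69 CPM in KO and at most 0.346 CPM in WT CCl4, but did not pass (adjusted p = 0.0536, edgeR). Of the 22 clock and output genes tested, 3 rose, 4 fell and 15 did not pass, among them Per1 (-0.79), Per2 (0.16), Per3 (-1.15), Nfil3 (0.43) and Tef (-0.56). Without KO 75, 7 rose and 7 fell, and 1 rose and 2 fell in the 6-library fit. With a library other than KO 75 left out, 0 to 2 rose and 2 to 4 fell. For Per2, KO 75 (14.5 CPM) lay below every WT CCl4 library while KO 72 (58.2 CPM) and KO 79 (47.8 CPM) lay above them. The time of day at sampling is also not known from these sources, and its part in these differences was not tested.

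**Figure D2:**
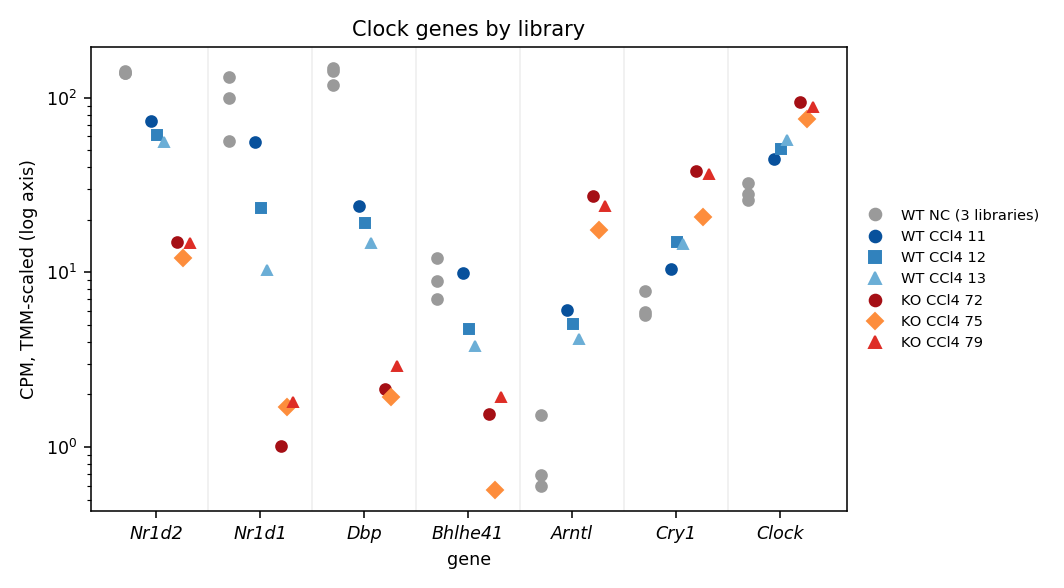
CPM on a log axis (y) of the 7 called clock genes (x) in each library, with WT NC in grey, WT CCl4 in blue and KO CCl4 in red and orange. Nr1d2, Nr1d1, Dbp and Bhlhe41 lie lower in all 3 KO libraries than in any WT CCl4 library, and Arntl, Cry1 and Clock lie higher.

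Acute phase genes rose together. They encode plasma proteins that hepatocytes secrete in inflammation, and the interleukin-6 pathway through STAT3 and the C/EBP factors drives many of them. Of 28 positive acute phase genes tested, 20 rose and 0 fell, the KO libraries were all above the WT CCl4 libraries for 25, and the median log2 fold change was 1.71, against -0.03 over all genes tested. Saa1 was at 99.6, 87.4 and 81.6 CPM in WT CCl4 11, 12 and 13 and at 2035, 1266 and 2107 CPM in KO 72, 75 and 79. Saa2 was at 72.7, 50.2 and 41.1 CPM in WT CCl4 and at 2390, 1456 and 1813 CPM in KO. All KO libraries, KO 75 included, exceeded the highest WT CCl4 library by more than an order of magnitude, and the log2 fold changes were 4.33 ± 0.29 and 5.11 ± 0.37 (SE; adjusted p = 0.000945 for both, edgeR). The WT NC means were 57.0 and 19.7 CPM.

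The orosomucoids, acidic glycoproteins that bind drugs, rose with them. Orm2 was at 66.0, 132 and 154 CPM in WT CCl4 and at 1047, 598 and 1004 CPM in KO (2.91 ± 0.38; adjusted p = 0.0135, edgeR). Orm3 was at 0.101, 0.593 and 0.421 CPM in WT CCl4 and at 14.3, 6.22 and 12.6 CPM in KO (4.87 ± 0.66; adjusted p = 0.0154, edgeR). Lcn2 (lipocalin 2), which sequesters bacterial siderophores, was at 138, 165 and 191 CPM in WT CCl4 and at 531, 938 and 652 CPM in KO, where KO 75 was the highest library (2.10 ± 0.26). Lbp, the lipopolysaccharide-binding protein, was at 21.8 to 25.3 CPM in WT CCl4 and at 65.1 to 71.2 CPM in KO (1.53 ± 0.19). The fibrinogen chains Fgb, Fgg and Fga rose by 2.05, 2.03 and 1.94 on the log2 scale, haptoglobin (Hp) by 1.77, C-reactive protein (Crp) by 1.51 and serum amyloid P (Apcs) by 1.75. The 8 members that did not pass included Saa3 (-0.73), Cd14 (-2.45) and Il1rn (-2.13), which macrophages also express, and ceruloplasmin (Cp, 0.99), hemopexin (Hpx, 1.20) and C3 (1.13), whose KO libraries were all above WT CCl4. Without KO 75, 24 rose and 2 (Cd14 and Il1rn) fell. The number that rose was 10, 10 and 13 without WT NC 1, 2 and 3, 6 without KO 72, 2 without KO 79, 5, 2 and 19 without WT CCl4 11, 12 and 13, and 4 in the 6-library fit. The counting may have divided reads among the similar copies of the Saa, Orm and Serpina3 genes, which makes the value of each copy uncertain.

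**Figure D3:**
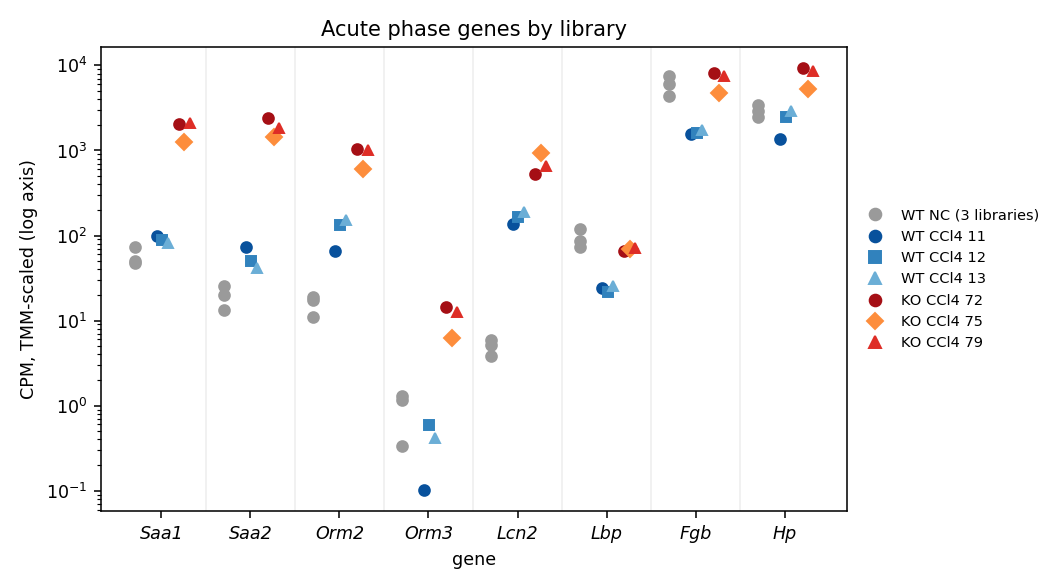
CPM on a log axis (y) of 8 acute phase genes (x) in each library, with WT NC in grey, WT CCl4 in blue and KO CCl4 in red and orange. All 3 KO libraries lie above all WT CCl4 libraries for each of the 8 genes, and the gap is widest for Saa1, Saa2 and Orm3.

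The promoters of the 4 acute phase genes with the largest log2 fold changes are shown because they hold the same short motif at nearly the same place within each pair of neighbours. The sequences are the 250 bases before the RefSeq transcription start (GRCm38.p6), 5′ to 3′ on the strand of the gene, and capitals mark a match to the C/EBP motif TTGCNNAA, searched on both strands. Saa1 lies at chr7:46742981-46743230 (minus strand), Saa2 at chr7:46751583-46751832 (plus), Orm2 at chr4:63362199-63362448 (plus) and Orm3 at chr4:63355908-63356157 (plus).
Saa1: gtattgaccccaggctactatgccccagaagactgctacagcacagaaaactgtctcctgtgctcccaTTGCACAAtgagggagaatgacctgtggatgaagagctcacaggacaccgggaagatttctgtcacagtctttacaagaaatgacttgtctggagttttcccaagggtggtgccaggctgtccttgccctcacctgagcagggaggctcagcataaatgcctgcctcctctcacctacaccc
Saa2: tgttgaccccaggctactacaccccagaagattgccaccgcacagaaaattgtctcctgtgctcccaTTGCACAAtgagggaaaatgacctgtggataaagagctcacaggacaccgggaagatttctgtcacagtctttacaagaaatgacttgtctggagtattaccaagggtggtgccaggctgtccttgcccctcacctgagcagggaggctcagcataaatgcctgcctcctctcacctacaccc
Orm2: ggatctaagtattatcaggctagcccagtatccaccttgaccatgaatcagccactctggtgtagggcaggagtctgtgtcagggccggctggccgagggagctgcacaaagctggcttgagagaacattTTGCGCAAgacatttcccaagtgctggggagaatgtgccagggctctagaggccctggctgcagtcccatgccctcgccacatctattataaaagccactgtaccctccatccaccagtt
Orm3: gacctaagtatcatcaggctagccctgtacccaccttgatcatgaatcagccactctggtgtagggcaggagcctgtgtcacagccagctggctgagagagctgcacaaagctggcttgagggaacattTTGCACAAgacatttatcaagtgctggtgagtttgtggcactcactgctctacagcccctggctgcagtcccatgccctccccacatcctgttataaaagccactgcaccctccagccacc

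The match began 182 bases before the start in Saa1 and 183 in Saa2, and 120 and 121 bases before it in Orm2 and Orm3. Aligned without gaps, the Saa1 and Saa2 windows shared 197 of 249 bases and the Orm2 and Orm3 windows 168 of 249. RefSeq promoters were found for 22 of the 28 acute phase genes tested, and 13 of the 22 (59.1%) held the C/EBP motif, against 7.98% of the 10388 promoters found for genes tested. The STAT motif TTCNNNGAA was in 5 of the 22 (22.7%), against 6.32%, and in none of them did it overlap a C/EBP match. Fga and Fgb held both. The AP-1 motif TGANTCA was in 7 of the 22 (31.8%), against 4.70%. The STAT motif was not particular to this list, being in 5 of 17 promoters (29.4%) of the NF-kB subunits and feedback genes described below. The acute phase shares cover list members whether or not they were called, and similar neighbours such as Saa1 and Saa2 count as separate promoters. Many acute phase genes are known as targets of C/EBP factors and STAT3, so these shares are not independent of the choice of list. A match is a description of these letters and not a site of binding.

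Genes of the interleukin-6 pathway itself did not pass. Of 28 ligands, receptors, kinases, STATs and feedback inhibitors tested, 0 rose and 0 fell in edgeR's test with all libraries (3 rose and 7 fell without KO 75, against 17.2% and 20.4% of all genes). Il6 was at 29.4, 11.5 and 0.895 CPM in WT CCl4 11, 12 and 13 and at 0.119, 0.141 and 0.605 CPM in KO 72, 75 and 79, so its KO libraries were all below WT CCl4 (-5.57 ± 1.31; adjusted p = 0.0542, edgeR). Stat3, the transcription factor of the pathway, was at 120, 82.6 and 66.1 CPM in WT CCl4 and at 165, 122 and 149 CPM in KO (0.70; adjusted p = 0.106, edgeR). Socs3, its induced inhibitor, was at 261, 120 and 44.9 CPM in WT CCl4 and at 68.1, 57.8 and 71.8 CPM in KO, within the WT CCl4 range. The negative acute phase genes, whose plasma levels drop in inflammation, included Alb (0.53) and Ttr (0.59), and 0 of 12 passed. Leaving KO 75 out, 8 of the 12 rose, and DESeq2's Wald test with all libraries called 6 higher.

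Inflammatory transcripts fell, and in WT CCl4 they varied widely between libraries. Tnf, encoding tumour necrosis factor, was at 366, 134 and 24.2 CPM in WT CCl4 11, 12 and 13 and at 0.715, 0.990 and 1.04 CPM in KO 72, 75 and 79. The WT CCl4 libraries thus spanned an order of magnitude, with 11 highest and 13 lowest, while the KO libraries lay together, 75 included (-7.56 ± 0.98; adjusted p = 0.0135, edgeR). Il10 was at 111, 36.9 and 3.32 CPM in WT CCl4 and at 0.596, 1.27 and 1.15 CPM in KO (-5.62 ± 1.21). Il1a was at 543, 201 and 35.2 CPM and at 10.4, 17.4 and 10.6 CPM (-4.34 ± 0.81). Ifnb1, interferon beta, was at 23.8, 9.28 and 1.47 CPM in WT CCl4 and at 0 in every KO library. Its 686 counts over WT CCl4 made it at least 218-fold lower in KO if the KO group is set at a floor of 3 counts, and at least 103-fold lower without WT CCl4 11, an alternative added after the values were seen. Of 19 inflammatory cytokines tested, 7 fell and 0 rose. Besides these 4, the costimulatory ligand Tnfsf9 (-4.85) and the EGF receptor ligands Hbegf (-3.30) and Ereg (-3.13) fell, while Il1b was at -2.38 and did not pass (adjusted p = 0.0669, edgeR).

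Among 22 chemokines tested, 6 fell and 0 rose. Cxcl2, which attracts neutrophils, was at 442, 169 and 32.3 CPM in WT CCl4 and at 5.37, 5.70 and 4.78 CPM in KO (-5.34 ± 0.81; adjusted p = 0.0201, edgeR). Ccl4 was at 247, 90.9 and 17.6 CPM and at 1.79, 6.83 and 2.86 CPM (-4.94 ± 1.03). Cxcl10, a target of interferon, fell by 4.06, Ccl2, the main attractant of monocytes, by 4.02 and Ccl3 by 3.82 on the log2 scale. Ccl22, which attracts regulatory T cells, was at 4.71, 1.73 and 0.526 CPM in WT CCl4 and at 0, 0 and 0.165 CPM in KO. It had 138 counts over the WT CCl4 libraries and 3 over the KO libraries, a ratio of 43.8 (14.7 to 215, counting error only), and of 21.5 (6.89 to 108) without WT CCl4 11. The adhesion molecule Sele (E-selectin), through which activated endothelium holds leukocytes, was at 74.7, 24.1 and 1.53 CPM in WT CCl4 and at 0.238, 0.518 and 0.935 CPM in KO (-5.87 ± 1.23).

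Early response transcription factors and feedback genes of NF-kB were also lower. Of 29 AP-1 and other immediate early genes tested, 11 fell and 0 rose, and the KO libraries were all below the WT CCl4 libraries for 19. Fosb was at 549, 247 and 105 CPM in WT CCl4 and at 27.5, 49.8 and 29.8 CPM in KO (-3.07 ± 0.57), and Atf3, a stress-induced factor, at 407, 171 and 96.1 CPM and at 27.9, 40.0 and 33.1 CPM (-2.74 ± 0.46). Fosl1 was at 12.0, 2.37 and 0.684 CPM in WT CCl4 and at 0, 0.0471 and 0 CPM in KO. Its 298 counts over WT CCl4 against 1 over KO gave a ratio of 284 (95% exact binomial interval 50.5 to 11243, counting error only), which was 87.3 (15.1 to 3505) without WT CCl4 11. Fos (-0.89) and Jun (-0.60) did not pass. Of 21 NF-kB subunits and feedback genes, 7 fell and 0 rose. Tnfaip3 (A20), an inhibitor that NF-kB induces, was at 827, 327 and 71.4 CPM in WT CCl4 and at 19.1, 18.4 and 19.7 CPM in KO (-4.42 ± 0.78; adjusted p = 0.0312, edgeR). Cd83 was at 210, 75.8 and 12.0 CPM and at 2.21, 2.26 and 1.59 CPM (-5.61 ± 0.90), and the inhibitor Nfkbia fell by 2.67. The subunit Nfkb1 was at -0.90 and did not pass.

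Without KO 75, 14 cytokine, 13 chemokine, 20 early and 13 NF-kB genes fell, and without WT CCl4 13 the counts were 13, 10, 17 and 16. No member of these 4 lists was called without WT CCl4 12, KO 72 or KO 79, and 0 or 1 per list without WT CCl4 11 or any WT NC library. WT CCl4 11, highest for these transcripts, also had the highest macrophage sum, and the part of that difference in the result was not tested. Within the KO group the macrophage sum was highest in KO 75 (3749 CPM), where Il1a and Ccl4 were also highest, Tnf was between KO 72 and KO 79 and Cxcl2 was highest by a small margin.

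**Figure D4:**
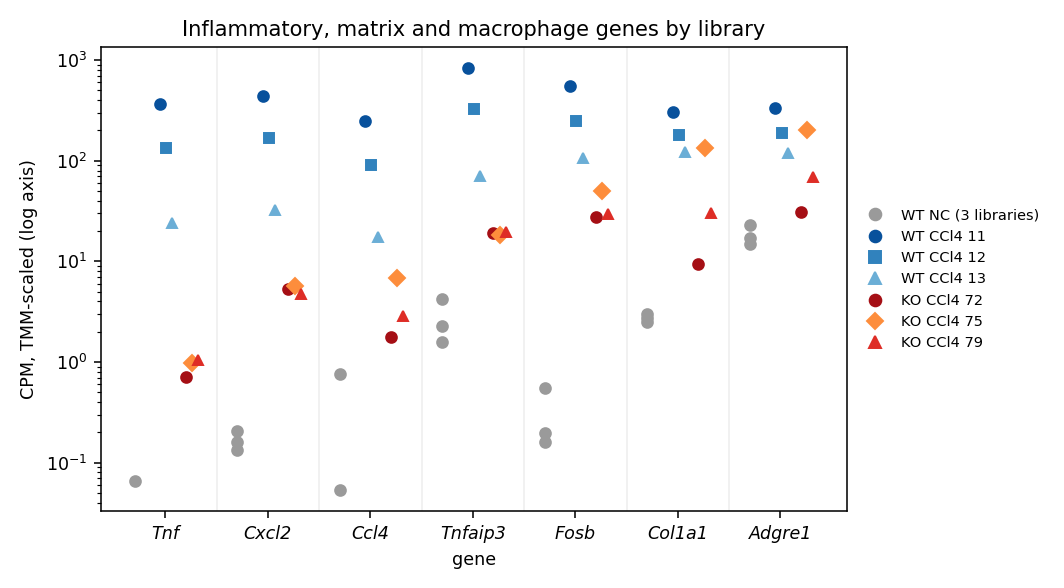
CPM on a log axis (y) of 7 genes (x) in each library, with WT NC in grey, WT CCl4 in blue and KO CCl4 in red and orange (libraries at 0 are not drawn). For Tnf, Cxcl2, Ccl4, Tnfaip3 and Fosb the 3 KO libraries lie below WT CCl4, whereas for Col1a1 and Adgre1 KO 75 lies among the WT CCl4 libraries.

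The Cxcl2 promoter is shown because it holds a match to the NF-kB consensus close to the start. It lies at chr5:90903649-90903898 (plus strand, GRCm38.p6, RefSeq), with capitals marking 2 overlapping matches, 1 on each strand.
Cxcl2: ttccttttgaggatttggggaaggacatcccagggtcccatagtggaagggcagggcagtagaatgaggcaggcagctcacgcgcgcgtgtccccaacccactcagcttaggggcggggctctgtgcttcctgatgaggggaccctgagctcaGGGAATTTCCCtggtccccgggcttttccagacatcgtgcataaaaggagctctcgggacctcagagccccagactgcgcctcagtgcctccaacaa

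The matches began 97 and 96 bases before the start. The consensus was in the same window of 5 of 14 cytokine promoters (35.7%), 4 of 14 chemokine promoters (28.6%) and 8 of 17 promoters of the NF-kB list (47.1%). Among promoters of genes tested the share was 4.51%. These shares cover list members whether or not they were called. The NF-kB list was chosen for that factor, so its share is not independent of the choice. The AP-1 motif was also in 5 of 14 cytokine promoters (35.7%), against 4.70% of genes tested. A match is not a site of binding.

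Hepatocyte metabolic genes were higher in the KO libraries, with KO 75 for most of them between the other KO libraries and WT CCl4. Of 38 urea cycle and amino acid genes tested, 20 rose and 0 fell, and the KO libraries were all above the WT CCl4 libraries for 29. Sds, which turns serine into pyruvate, was at 24.6, 32.1 and 33.3 CPM in WT CCl4 11, 12 and 13 and at 115, 115 and 112 CPM in KO 72, 75 and 79 (1.92 ± 0.16; adjusted p = 0.0017, edgeR). Mat1a, which makes S-adenosylmethionine in the adult liver, was at 292, 394 and 453 CPM in WT CCl4 and at 3699, 1381 and 3163 CPM in KO (2.86 ± 0.37). The cystathionine lyase gene Cth rose by 1.95, the aspartate aminotransferase gene Got1 by 1.59 and tyrosine aminotransferase (Tat) by 1.85 on the log2 scale. Among the urea cycle enzymes Arg1 rose by 1.10, Asl by 1.73, Cps1 by 1.25 and Ass1 by 1.13. Pck1, the rate-limiting enzyme of gluconeogenesis, was at 36.8, 65.0 and 78.6 CPM in WT CCl4 and at 531, 350 and 479 CPM in KO (2.91 ± 0.33; adjusted p = 0.00909, edgeR). Its WT NC mean was 4210 CPM, so both CCl4 groups lay far below WT NC. G6pc was at 9.21, 48.4 and 65.2 CPM in WT CCl4 and at 485, 81.1 and 388 CPM in KO and did not pass (adjusted p = 0.058, edgeR).

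Of 38 genes of fatty acid oxidation and other PPAR-alpha targets, 16 rose and 0 fell. Cyp4a14 was at 23.4, 28.1 and 36.8 CPM in WT CCl4 and at 494, 151 and 434 CPM in KO (3.61 ± 0.43; adjusted p = 0.0118, edgeR), and Cyp4a10 at 11.4, 16.8 and 24.1 CPM and at 502, 98.7 and 420 CPM (4.29 ± 0.58). Both are omega-hydroxylases of fatty acids. The peroxisomal enzyme Ehhadh (1.89) and the lipase inhibitor Angptl4 (1.42) rose, while Cpt1a, the entry step of mitochondrial oxidation, was at 0.61 and did not pass. Nuclear-encoded respiratory chain subunits rose in 10 of 48 and fell in 0, with the KO libraries all above WT CCl4 for 41 and a median log2 fold change of 0.79. Cox6c, a subunit of cytochrome oxidase, was at 42.9, 51.3 and 55.6 CPM in WT CCl4 and at 136, 81.2 and 127 CPM in KO (1.20 ± 0.24). The 13 mitochondrially encoded genes had a median of 0.08, and 0 passed. Among them mt-Atp6 was at 21454, 21039 and 21534 CPM in WT CCl4 and at 3318, 2327 and 3299 CPM in KO (-2.84 ± 0.80; adjusted p = 0.0633, edgeR). It did pass in the 6-library fit (adjusted p = 0.0491, edgeR). WT NC 1, 2 and 3 were themselves divided for mt-Atp6, at 1847, 13633 and 1418 CPM, and the source of this division was not tested. Fatty acid synthesis genes rose in 1 of 24 (Elovl3), and without KO 75 18 rose and 1 fell. Fasn, the fatty acid synthase, was at 397, 737 and 916 CPM in WT CCl4 and at 3839, 330 and 3083 CPM in KO 72, 75 and 79, so KO 75 lay below all WT CCl4 libraries.

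Drug and bile acid genes were likewise higher. Of 38 cytochromes P450 of families 1 to 3, 12 rose and 0 fell. Cyp2c29 was at 142, 136 and 138 CPM in WT CCl4 and at 1426, 459 and 1268 CPM in KO (2.92 ± 0.39; adjusted p = 0.0143, edgeR), and Cyp2e1, which activates CCl4, rose by 2.31, a call lost without any single library except KO 75. Cyp1a2 (-0.16) did not pass. Cyp2c38, the largest fitted rise (5.42 ± 0.88), was at 0.354, 0.790 and 0.474 CPM in WT CCl4 and at 37.7, 2.88 and 30.1 CPM in KO. Of 37 phase II enzymes, 5 rose and 0 fell, with Nnmt (nicotinamide methyltransferase) at 24.1, 24.4 and 30.9 CPM in WT CCl4 and at 176, 131 and 182 CPM in KO (2.62 ± 0.29; adjusted p = 0.00909, edgeR). Bile acid genes rose in 9 of 24 and fell in 0, including the synthetic enzyme Cyp27a1 (1.75), the export pump Abcb11 (1.44) and the uptake carrier Slco1b2 (1.31). Cyp7a1, the rate-limiting enzyme of the classical pathway, was at 53.4, 68.2 and 72.0 CPM in WT CCl4 and at 405, 56.3 and 325 CPM in KO and did not pass (adjusted p = 0.0777, edgeR). By position in the lobule, 10 of 24 pericentral genes and 9 of 24 periportal genes rose and none of either fell. The pericentral marker Glul (0.98) did not pass. With KO 75 left out, 22 phase II enzymes rose and 6 fell, 15 pericentral and 16 periportal genes rose, and 1 of each fell.

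In the absence of KO 75, 34 of 38 urea cycle and amino acid genes, 35 of 38 fatty acid oxidation genes, 44 of 48 respiratory chain subunits, 26 of 38 cytochromes P450 and 15 of 24 bile acid genes rose. When another library was left out instead, these 5 counts ran from 1 to 18, 0 to 11, 0 to 2, 0 to 10 and 0 to 8. The hepatocyte marker sum was higher in every KO library than in every WT CCl4 library, and lowest in WT CCl4 11, and its part in these differences was not tested. Alb, the most abundant of the hepatocyte markers, was at 32840, 47161 and 53235 CPM in WT CCl4 and at 71407, 61189 and 59190 CPM in KO (0.53 ± 0.39) and did not pass.

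Plasma protein and lipid genes rose in part. Of 30 coagulation genes, 6 rose and 1 fell. Besides the fibrinogen chains, Cpb2 (1.45), a carboxypeptidase that slows clot lysis, kininogen 1 (Kng1, 1.56) and factor IX (F9, 1.33) rose. Serpina1e, an alpha-1 antitrypsin gene, was at 1669, 2114 and 2300 CPM in WT CCl4 and at 532, 781 and 607 CPM in KO (-1.66 ± 0.26; adjusted p = 0.0219, edgeR). Its WT NC mean was 11100 CPM, and it has near-identical copies, so its own level is uncertain. Of 29 complement genes, 5 rose, among them the C1 inhibitor gene Serping1 (1.11) and the lectin gene Mbl1 (1.54), and Cd55, which protects cells from complement, fell (-0.88). Of 23 apolipoproteins and carriers, Apoa4 (1.97), Apoa5 (2.52), Apoc4 (1.16) and Lcat (1.47) rose and 0 fell. Apoa4 was at 118, 175 and 184 CPM in WT CCl4 and at 402, 966 and 504 CPM in KO, with KO 75 the highest library. Of 26 cholesterol genes, 2 rose and 0 fell. Insig2, which retains the sterol sensor SCAP in the endoplasmic reticulum, was at 24.6, 37.5 and 46.1 CPM in WT CCl4 and at 151, 165 and 162 CPM in KO (2.15 ± 0.26; adjusted p = 0.0118, edgeR). Without KO 75, 19, 18, 14 and 20 genes of these 4 lists rose and 3, 7, 1 and 0 fell. When another library was left out, 0 to 6 coagulation, 0 to 6 complement, 0 to 3 apolipoprotein and 0 or 1 cholesterol genes rose, and in the 6-library fit 0, 0, 0 and 1 did.

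Sex-biased genes split. Growth hormone pulses set a male and a female pattern of liver genes in the mouse, and Y-linked Ddx3y was at 53.7 to 79.7 CPM in all 6 libraries. Of 16 genes listed as female-biased, 10 rose and 0 fell, with a median log2 fold change of 3.07. Cyp17a1, a steroid hydroxylase, was at 3.04, 3.65 and 5.05 CPM in WT CCl4 and at 32.5, 24.6 and 35.0 CPM in KO (2.97 ± 0.28; adjusted p = 0.00341, edgeR). Cyp2b10 was at 1.11, 1.63 and 1.53 CPM and at 14.5, 13.2 and 14.5 CPM (3.30 ± 0.49). In both genes KO 75 lay with KO 72 and KO 79. Several members, such as Cyp4a14 and Cyp2b10, also respond to fatty acids or drugs through nuclear receptors, and the female-biased Cyp2a4 (-0.82) and Cyp2b9 (0.86) did not pass. Without KO 75, 12 rose and 1 fell, and 0 to 7 rose when another library was left out.

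Among 20 male-biased genes, 2 rose and 1 fell. Cyp4a12b was at 0.810, 1.38 and 1.63 CPM in WT CCl4 and at 47.8, 1.65 and 38.9 CPM in KO 72, 75 and 79, and Elovl3 at 0.405, 0.148 and 0.526 CPM and at 11.7, 0.754 and 9.79 CPM. For both, KO 75 lay just above the WT CCl4 libraries. Their WT NC means were 146 and 110 CPM, above every KO library. Bcl6, a repressor of female-biased genes in male liver, was at 21.5, 20.2 and 22.9 CPM in WT CCl4 and at 7.03, 9.14 and 9.46 CPM in KO (-1.33 ± 0.16; adjusted p = 0.0118, edgeR), against a WT NC mean of 78.8 CPM. The median position of the male-biased list, as log2 CPM minus the mean of the WT CCl4 libraries, was 1.64 in KO 72, -0.69 in KO 75 and 1.34 in KO 79. Cyp4a12a illustrates the split, at 94.7, 1.04 and 75.1 CPM in KO 72, 75 and 79 and 5.21 to 9.11 CPM in WT CCl4. Without KO 75, 12 rose and 2 fell. Genes of the growth hormone and IGF axis passed in 0 of 14, with Ghr at 360, 78.9 and 302 CPM in KO 72, 75 and 79. Of these 14, 5 rose and 2 fell without KO 75.

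Of 19 genes of hepcidin, BMP signalling and iron handling tested, 5 rose and 0 fell. BMP ligands signal in hepatocytes through SMAD1, SMAD5 and SMAD9 to induce the iron hormone hepcidin. Hamp, which encodes it, was at 140, 193 and 218 CPM in WT CCl4 and at 1013, 507 and 908 CPM in KO (2.14 ± 0.31; adjusted p = 0.0199, edgeR). Its neighbour Hamp2 (2.90), the transferrin receptor gene Tfr2 (1.61), which acts upstream of hepcidin, the BMP-binding protein gene Bmper (1.68) and Atoh8 (1.56) also rose. The WT NC means of Hamp (390 CPM), Hamp2 (3.46 CPM) and Bmper (0.216 CPM) lay below every KO library. Those of Tfr2 (351 CPM) and Atoh8 (17.7 CPM) lay above every KO library. Smad9 was the single member called among 15 SMAD transducers and inhibitors (1.89 ± 0.43), at 2.38, 2.37 and 3.90 CPM in WT CCl4 and 15.3, 4.38 and 12.5 CPM in KO. The BMP targets Id1 (0.78), Id2 (-0.20), Id3 (0.23) and Smad6 (-0.13) did not pass. Without KO 75, 5 hepcidin and BMP genes rose and 3 fell, and no gene of the list was called without WT CCl4 11, WT CCl4 12, KO 72 or KO 79.

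The TGF-beta pathway's own genes did not pass with all libraries. Of 16 ligands, latency proteins and receptors tested, 0 rose and 0 fell in edgeR's test, while the KO libraries were all below WT CCl4 for 7 and the median log2 fold change was -0.94. Tgfb1, the main ligand, was at 73.1, 47.6 and 33.0 CPM in WT CCl4 11, 12 and 13 and at 10.4, 32.9 and 12.9 CPM in KO 72, 75 and 79 (-1.45 ± 0.44; adjusted p = 0.0744, edgeR). Tgfbr1, the type I receptor, was at 99.6, 72.9 and 68.8 CPM and at 33.8, 55.4 and 35.9 CPM (-0.95 ± 0.23; adjusted p = 0.0515, edgeR). Smad7, the inhibitor that TGF-beta induces, was at 0.45 and did not pass (adjusted p = 0.255, edgeR). Without KO 75, 15 of the 16 fell and 0 rose.

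Of 20 genes listed as induced by TGF-beta, 2 fell and 0 rose. Thbs1, a matrix protein that activates latent TGF-beta, was at 325, 117 and 20.3 CPM in WT CCl4 and at 6.26, 18.4 and 8.91 CPM in KO (-3.78 ± 0.89). For this gene WT CCl4 11 was the highest and WT CCl4 13 the lowest of its group, as for Tnf. Tgfbi was at 132, 113 and 112 CPM in WT CCl4 and at 47.1, 166 and 62.6 CPM in KO, and Ctgf (Ccn2) at 9.16, 12.1 and 15.7 CPM and at 3.64, 23.7 and 7.04 CPM. In both, KO 72 and KO 79 lay below WT CCl4, KO 75 lay above it, and neither passed. Without KO 75, 12 of the 20 fell, and without WT CCl4 11, WT CCl4 12, KO 72, KO 79 or any WT NC library 0 did.

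Collagens also set KO 75 apart from KO 72 and KO 79, but with KO 75 within the WT CCl4 range for Col1a1 and below it for Col3a1. Col1a1 was at 304, 181 and 123 CPM in WT CCl4 and at 9.48, 133 and 30.1 CPM in KO 72, 75 and 79 (-1.81 ± 0.77; adjusted p = 0.146, edgeR), with a WT NC mean of 2.76 CPM. Col3a1 was at 980, 619 and 458 CPM and at 28.1, 372 and 91.8 CPM (-2.06 ± 0.76; adjusted p = 0.109, edgeR). Of 20 collagen chains, 0 passed in edgeR's test with all libraries, and without KO 75 13 fell and 3 rose. DESeq2's Wald test with all libraries called 4 lower and 1 higher. All KO libraries, KO 75 included, were below WT CCl4 for Col3a1, Col4a1, Col4a2, Col4a3, Col5a1, Col6a3 and Col16a1, and all above it for none. Over all genes tested each of these shares was 15.8%. Stellate cell and myofibroblast markers passed in 0 of 18, with 14 lower and 0 higher without KO 75, and the sum of their 10 defining markers was 2490, 1775 and 1496 CPM in WT CCl4 and 243, 1591 and 478 CPM in KO. Fn1, fibronectin, which hepatocytes make in quantity, was at 1152, 1115 and 1117 CPM in WT CCl4 and at 1516, 966 and 1348 CPM in KO (0.18).

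Matrix glycoproteins and proteases included genes that passed. Of 23 proteases and inhibitors, 7 fell and 0 rose, and the KO libraries were all below WT CCl4 for 15. Timp3, a matrix-bound metalloprotease inhibitor, was at 127, 90.6 and 78.0 CPM in WT CCl4 and at 26.4, 38.2 and 26.7 CPM in KO, close to its WT NC mean of 35.2 CPM (-1.70 ± 0.23; adjusted p = 0.0168, edgeR). The macrophage elastase Mmp12 was at 393, 222 and 164 CPM and at 2.62, 37.8 and 10.6 CPM (-3.93 ± 0.90). The urokinase gene Plau (-3.70) and its receptor gene Plaur (-3.28), the collagenase Mmp13 (-3.63) and Adamts1 (-1.97) fell, whereas Timp1 was at -1.97 and did not pass (adjusted p = 0.0911, edgeR). The fibulins Fbln1 (-2.55) and Fbln2 (-2.46) fell with Thbs1, the 3 calls among 28 matrix glycoproteins. Without KO 75, 20 proteases and inhibitors and 22 glycoproteins fell. Of the proteases, 0 were called without WT CCl4 12, KO 72 or KO 79 and 1 without WT CCl4 11.

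Macrophage genes gave few calls with all libraries, where 1.61% of all genes tested were lower, and many without KO 75. Of 17 Kupffer cell genes, 0 passed in edgeR's test, with Clec4f at 371, 247 and 174 CPM in WT CCl4 and 94.1, 379 and 150 CPM in KO 72, 75 and 79. Of 24 genes of recruited and lipid-associated macrophages, Itgax (CD11c; 59.1, 38.8 and 29.3 CPM in WT CCl4 and 2.56, 14.4 and 5.06 CPM in KO, -2.52 ± 0.55) and Mmp12 fell, and 0 rose. Gpnmb, a glycoprotein of lipid-laden macrophages, was at 2156, 1347 and 841 CPM in WT CCl4 and at 5.84, 660 and 125 CPM in KO (-2.46 ± 1.15; adjusted p = 0.174, edgeR). KO 72 and KO 75 thus lay far apart in this gene. Without KO 75, 11 Kupffer cell genes and 19 recruited macrophage genes fell and 1 and 2 rose, against 20.4% lower and 17.2% higher over all genes. DESeq2's Wald test with all libraries called 1 Kupffer cell gene and 9 recruited macrophage genes lower, and 1 of each list higher. Toll-like receptor and inflammasome genes fell in 1 of 20, Tlr2 (-2.94). Interferon response genes fell in 1 of 27 (Cxcl10) and rose in 1 (Stat2, 0.73). Stat2 was at 45.7 to 50.5 CPM in WT CCl4 and 77.9 to 79.7 CPM in KO. Omitting KO 75 left 15 Toll-like receptor and inflammasome genes lower and 1 higher, and 14 interferon response genes lower and 2 higher.

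Marker sums of other cells were compared by library. Summed over 8 genes, sinusoidal endothelial markers were at 939, 839 and 781 CPM in WT CCl4 and 541, 771 and 572 CPM in KO, and 5 cholangiocyte markers at 417, 244 and 168 CPM and at 64.5, 195 and 91.2 CPM. Markers of neutrophils (6) summed to 30.9 to 71.1 CPM in WT CCl4 and 19.7 to 36.7 CPM in KO, and lymphocyte markers (10) to 46.3 to 75.6 CPM and 35.4 to 64.6 CPM. Of the 5 erythrocyte markers, the heme synthesis gene Alas2 was at 10.7, 11.9 and 13.0 CPM in WT CCl4 and at 60.2, 6.83 and 48.5 CPM in KO. The globin gene Hbb-bs was at 29.2, 11.7 and 5.0 CPM and at 3.64, 12.4 and 4.51 CPM, so the members did not move together. Exocrine pancreas genes (7), which liver does not make, summed to 1045, 328 and 9.32 CPM in WT CCl4 11, 12 and 13 and to 22.2, 151 and 44.5 CPM in KO 72, 75 and 79, within the WT CCl4 range. Mesothelial genes (4) summed to 150, 75.0 and 35.7 CPM in WT CCl4 and 3.58, 25.8 and 6.49 CPM in KO. WT CCl4 11 was highest for both, and it was also highest for the inflammatory transcripts. The part of neighbouring tissue in those transcripts was not tested. None of these markers passed in edgeR's test with all libraries, and no defining marker was at 0 in all 6 libraries.

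Some genes of DNA replication were lower in the KO libraries. Of 30 genes of DNA replication and S phase, 7 fell and 0 rose, and the KO libraries were all below WT CCl4 for 22. Mcm4, part of the replicative helicase, was at 35.2, 36.8 and 45.1 CPM in WT CCl4 and at 7.09, 17.0 and 9.13 CPM in KO (-1.81 ± 0.33; adjusted p = 0.0322, edgeR). Cdt1, which loads that helicase (-1.78), Mcm2 (-1.48), Mcm6 (-1.30), the sliding clamp gene Pcna (-1.21), Uhrf1 (-1.99) and Ccne1 (-1.05) fell. Of 30 mitotic genes, 0 passed in edgeR's test, and the difference between the replication and mitotic lists was not tested. Mki67 was at 209, 234 and 256 CPM in WT CCl4 and at 30.4, 175 and 61.8 CPM in KO (-1.39 ± 0.53; adjusted p = 0.119, edgeR), and Cdk1 at 26.9, 39.0 and 40.5 CPM and at 7.21, 55.9 and 15.9 CPM. All KO libraries were below WT CCl4 for 4 of the 30 mitotic genes, and KO 75 was above all WT CCl4 libraries for Cdk1. Without KO 75, 26 replication and 29 mitotic genes fell. No replication gene was called without WT CCl4 12, KO 72, KO 79 or any WT NC library. Cyclin D2 (Ccnd2, -1.01) and Rb1 fell among 12 D cyclins, CDK inhibitors and their partners, while Ccnd1 (-0.50) and Cdkn1a (-0.79) did not pass. Of 21 p53 targets, Mdm2 (-1.40) and Plk2 (-2.29) fell. In the fit without KO 75, 14 p53 targets fell and 2 rose, and 7 genes of the D cyclin list fell. Egfr, the receptor for hepatocyte mitogens, was at 87.1, 102 and 106 CPM in WT CCl4 and at 631, 144 and 541 CPM in KO (2.16 ± 0.45). Its WT NC mean was 706 CPM, above every KO library. The Egfr call was kept in 1 of the 9 fits that left out a library, the fit without KO 75. In its list, EGF receptor and HGF ligands, 2 genes rose and 3 fell, and 6 and 7 did without KO 75. Hgf was at 58.6, 44.8 and 43.6 CPM in WT CCl4 and at 12.6, 64.1 and 19.6 CPM in KO and did not pass.

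Stress genes gave few calls, beside 3.46% higher and 1.61% lower over all genes tested. Among 29 genes of the unfolded protein and integrated stress responses, Ddit4 rose (1.79) and Atf3 and Ppp1r15a (-2.37) fell, with Hspa5, the main chaperone of the endoplasmic reticulum, at -0.13. Among 21 NRF2 targets and metallothioneins, Mt1 rose (1.86) and Txnrd1 fell (-1.17). Omitting KO 75 gave 6 higher and 4 lower genes in the stress response list, and 3 and 9 in the NRF2 list. Nqo1, an NRF2 target, was at 53.4, 76.7 and 87.2 CPM in WT CCl4 and at 7.63, 90.9 and 25.7 CPM in KO and did not pass. Of 43 cytosolic ribosomal protein genes, 0 passed in edgeR's test, and their median log2 fold change was 0.01. Among 25 hepatocyte transcription factors and nuclear receptors, the pregnane X receptor Nr1i2 (1.32) and Onecut1 (HNF6, 2.03) rose, and Nr1d1 and Bcl6 fell, as given above. Hnf4a was at 0.92 and did not pass. In the fit without KO 75, 14 of these transcription factors and receptors rose and 2 fell. Ptpn14 (-1.66) fell among 16 YAP and TAZ targets, the small heat shock protein Hspb8 (1.03) rose among 17 heat shock proteins, and Lcn2 and Ly6d (1.90) rose among 9 fetal liver and liver cancer markers. Afp, alpha-fetoprotein, was at 14.5, 23.3 and 27.1 CPM in WT CCl4 and at 1.61, 88.6 and 18.2 CPM in KO and did not pass. None of 11 class II antigen presentation genes, 24 lysosomal genes or 14 exocrine pancreas genes passed in edgeR's test with all libraries. In these 3 lists 6, 16 and 1 genes fell without KO 75, and 1 lysosomal gene rose.

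Set side by side, the lists placed KO 75 differently. As the median log2 CPM minus the mean of the WT CCl4 libraries, KO 72, 75 and 79 stood at 1.83, 1.35 and 1.76 for the acute phase list, 3.09, 2.32 and 3.02 for the female-biased list, and -1.92, -1.43 and -1.80 for the early genes. For these lists KO 75 lay outside the WT CCl4 range (-0.24 to 0.20, -0.26 to 0.07 and -1.07 to 1.11). For collagens the positions were -2.10, -0.40 and -1.70, for stellate cell markers -1.85, 0.20 and -1.10, for mitosis -2.74, 0.12 and -1.65, and for Kupffer cell genes -1.57, 0.13 and -1.37. In the last 3 of these lists KO 75 lay inside or just outside the WT CCl4 range (-0.05 to 0.16, -0.23 to 0.20 and -0.56 to 0.60). For male-biased genes and fatty acid synthesis (1.66, -0.22 and 1.41) KO 75 had the opposite sign to KO 72 and KO 79. These positions are descriptions, and KO 75 was not tested against KO 72 and KO 79. The fits without KO 75 do set KO 72 and KO 79 alone against WT CCl4. That fit is quoted more than the other leave-outs because KO 75 stood apart in its values, so its counts are not independent of that choice.

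**Figure D5:**
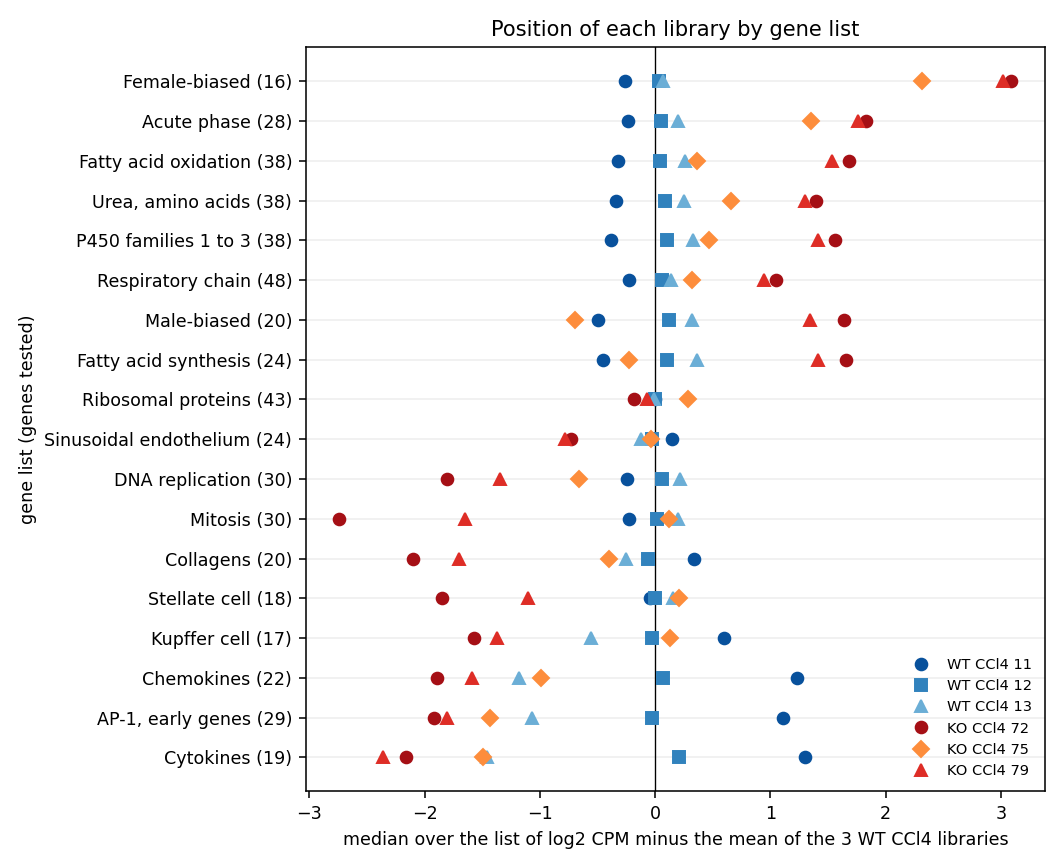
Median over each gene list (y axis, with the number of genes tested) of log2 CPM minus the mean of the 3 WT CCl4 libraries (x axis), 1 point per library, WT CCl4 in blue and KO CCl4 in red and orange. KO 75 lies with KO 72 and KO 79 for the female-biased and acute phase lists and near WT CCl4 for the mitosis, collagen, stellate cell and Kupffer cell lists.

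Outside the 61 lists stood 353 of the 489 higher and 162 of the 228 lower genes. The 5 with the smallest p were as follows. Nlrp12, an inhibitory member of the NLR family, was at 2.33, 2.37 and 2.58 CPM in WT CCl4 and at 15.4, 12.3 and 14.8 CPM in KO, against a WT NC mean of 47.5 CPM (2.54 ± 0.24; adjusted p = 0.00341, edgeR). The guanylate-binding protein gene Gbp2b was at 0.860, 1.09 and 0.842 CPM and at 6.38, 10.1 and 6.98 CPM (3.06 ± 0.32; adjusted p = 0.00781, edgeR). Wdfy1, a FYVE-domain protein of endosomes, was at 17.9, 16.5 and 15.1 CPM and at 5.01, 5.89 and 5.66 CPM, below its WT NC mean of 11.0 CPM (-1.58 ± 0.17; adjusted p = 0.00781, edgeR). Hacl1, a peroxisomal lyase of branched fatty acid breakdown, was at 57.5, 75.7 and 85.6 CPM and at 493, 233 and 438 CPM (2.41 ± 0.30). The secreted ribonuclease gene Rnase4 was at 397, 429 and 456 CPM and at 1430, 1268 and 1429 CPM (1.69 ± 0.21). For all 5, no library of either group overlapped the other. The 12 largest rises also included Csrp3 (4.68 ± 0.76), a muscle LIM protein, and Nos2 (3.39 ± 0.81), the inducible nitric oxide synthase. The 12 largest falls also included Serpinb2 (-5.05 ± 1.07), at 47.8, 19.7 and 2.16 CPM in WT CCl4 and 0.477, 0.660 and 0.935 CPM in KO.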

How the data were processed

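The data are 9 mRNA sequencing libraries of mouse liver, and the table of the whole series holds 34745 genes. Per the submitters' processing notes, the tools were HISAT2 2.0.4, an aligner, and StringTie 1.3.0, a transcript assembler, and the builds named are mm10 and GRCm38.p4. How genes were counted, with which strand setting and with which rule for shared reads, is not given in the sources used here. The authors deposited raw whole-number counts per gene and FPKM values. The labels do not say that the libraries came from separate mice, so p-values measure the spread between libraries, which may be technical. No 2 libraries of a group agreed within sampling noise.

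From the counts, edgeR 4.0.16 (R 4.3.3) was fitted to all 9 libraries with a mean for each group, TMM normalisation and filterByExpr, and KO CCl4 was set against WT CCl4 with the quasi-likelihood test and Benjamini-Hochberg adjustment at 0.05. Standard errors were derived from the fold change and its F statistic. On simulated counts with 200 changed genes the fit recovered 15.0% of 2-fold and 81.3% of 4-fold changes over 14134 genes, and 6.47% of its calls were unchanged genes. Alternatives were DESeq2 1.42.0, limma 3.58.1 on log2(FPKM + 1) or log2(FPKM + 0.1), a 6-library fit, other filters and scalings, and fits leaving out each library. Intervals and floors cover counting error only.

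The comparison and the 61 gene lists were chosen with earlier results of these data known, so lists are described by counts and medians and were given no test. Named genes were Tgfbr2, the 12 largest rises and falls without overlap at 5 CPM or more, the calls kept in every leave-out, the 5 smallest p outside the lists, and list members, with values by library for the called members of smallest p or for genes marked as core members. Il6, Npas2, Per2, Cyp7a1, Cyp4a12a and mt-Atp6 fall outside that rule for values by library and were chosen after their values were seen. A few genes that the rule names are not reported here.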

Additional observations from a re-analysis of the deposited data

How the results depend on the processing

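The number of genes called, 717, was 615 with DESeq2's size factors, 750 without the mitochondrial genes, 867 without a filter and 701 with log2(FPKM + 1). It moved to 2766 with DESeq2's Wald test, 30 in the 6-library fit, 371 with log2(FPKM + 0.1) and 413 with unfiltered FPKM. Leaving out 1 library gave 5 (without WT CCl4 12) to 5453 (without KO 75). The Tgfbr2 log2 fold change of -1.26 kept its sign in all these fits and ran from -1.91 to -0.98 when 1 library was left out. It passed the threshold without KO 75 and with DESeq2's Wald test (-1.27, adjusted p = 0.0172). Of 186 other named genes, called or not, 108 lost a call in the 6-library fit. The remaining 78 include genes called in neither fit, so they are not a count of kept calls. Over all genes, 28 of the 717 calls were kept in the 6-library fit. The cause of these moves was not tested.

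Reversed signs were found in genes that passed in neither fit. With log2(FPKM + 1), filtered or not, and with log2(FPKM + 0.1), the log2 fold changes were -0.25 and -0.31 for Per2, -0.095 and -0.11 for Ddx3y, -0.13 and -0.13 for Fn1, and -0.31 and -0.76 for Afp. Leaving out 1 library in turn gave -0.20 to 0.57 for Per2, -0.38 to 0.045 for Cyp1a2, -1.20 to 0.32 for Ctgf, -1.11 to 0.0065 for Clec4f, -1.61 to 0.023 for Cdk1, -0.42 to 0.096 for Id2, -0.38 to 0.18 for Smad6, -0.27 to 0.088 for Hspa5 and -1.12 to 1.31 for Afp.

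No paired analysis was possible because the 2 groups share no replicate numbers in the labels. With 3 libraries a group, 2-fold changes were mostly not detectable at this spread.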
